A study of Mus musculus with 16 samples.

Results

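The gene set comprised 52 genes: regulators of the tumour suppressor p53, transcriptional targets of p53, the Bcl2 family, caspases and their partners, inhibitors of apoptosis, and death receptor and necroptosis genes. They were chosen by name and are 52 of the 21770 protein-coding genes of the mouse annotation. Marks were taken as N6-methyladenosine (m6A) peaks on the strand of the gene that overlapped an exon. N6-methyladenosine is the most common internal modification of messenger RNA, and methylated RNA immunoprecipitation sequencing enriches RNA fragments with an antibody against it and reads the fragments as peaks.

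The samples were cerebral cortical peri-infarct tissue of adult male C57BL/6J mice, 6 to 8 weeks old at surgery. In the 3 occlusion groups the middle cerebral artery was closed with a filament for 2 h and the tissue was taken after reperfusion of 0 h (MCAO/R-0 h), 6 h (MCAO/R-6 h) or 24 h (MCAO/R-24 h), and Sham mice had the same surgery without the filament. Each group had 2 immunoprecipitated libraries, so 8 peak lists were available, and 8 input libraries were not analysed here. The lists held 18775 (Sham replicate 1) to 24078 (MCAO/R-0 h replicate 2) peaks and give no read counts, so depth is unknown. The labels do not say whether libraries came from separate mice, so p-values measure the spread between these libraries, which may be technical.

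p53 is a transcription factor that is stabilised by cell stress and switches on genes that stop the cell cycle, repair damage or start apoptosis. In the mitochondrial route of apoptosis, BH3-only proteins free the effectors Bax and Bak1 from pro-survival Bcl2 proteins, cytochrome c leaves the mitochondria, and Apaf1 and Casp9 assemble the apoptosome. In the death receptor route, Fas or tumour necrosis factor receptors recruit Fadd, Tradd, Ripk1 and Casp8, and Ripk1 with Ripk3 and Mlkl can direct necroptosis instead. Both routes are known to act in ischaemic brain. m6A is written mainly at the motif RRACH, in which R is A or G and H is A, C or T, and is known to lie near stop codons and in long exons.

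Each peak carries a score from the peak caller whose scale is not defined, so only its rank was used. The score percentile is the percent of the peaks of the same list with a lower score. Peaks of a gene that shared at least 1 exonic base were joined to a region.

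The 6 regions with the highest median score percentile among those found in all 8 lists lay in Mdm2, Mdm4, Mcl1, Birc2, Trp53bp2 and Gadd45a. Their sequences are shown because these stretches were covered by a peak in every library. Each sequence is from the GENCODE transcript with the longest coding sequence, on GRCm39, 5′ to 3′, with RRACH matches in capitals, and neighbouring matches run together. The Trp53bp2 stretch crosses an intron, which its coordinates include. The Mcl1 stretch is 30 bases of the 3′ UTR, and the others are coding.
Mdm2, chr10:117526115-117526279, minus strand: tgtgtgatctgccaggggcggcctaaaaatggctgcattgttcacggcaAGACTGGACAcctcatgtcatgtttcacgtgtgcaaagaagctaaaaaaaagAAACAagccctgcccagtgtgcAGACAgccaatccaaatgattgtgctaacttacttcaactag
Mdm4, chr1:132919610-132919884, minus strand: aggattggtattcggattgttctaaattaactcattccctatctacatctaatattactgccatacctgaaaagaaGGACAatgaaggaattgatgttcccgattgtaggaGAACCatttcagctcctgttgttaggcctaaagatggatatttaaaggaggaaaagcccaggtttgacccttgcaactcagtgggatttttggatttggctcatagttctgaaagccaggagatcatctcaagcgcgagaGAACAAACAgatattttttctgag
Mcl1, chr3:95568205-95568234, plus strand: atttatgaaggtGGACTtgaagctgcccag
Birc2, chr9:7834293-7834479, minus strand: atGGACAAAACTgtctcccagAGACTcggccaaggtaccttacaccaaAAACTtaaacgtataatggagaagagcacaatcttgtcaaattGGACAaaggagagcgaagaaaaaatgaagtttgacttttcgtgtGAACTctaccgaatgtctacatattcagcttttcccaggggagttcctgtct
Trp53bp2, chr1:182274223-182276061, plus strand: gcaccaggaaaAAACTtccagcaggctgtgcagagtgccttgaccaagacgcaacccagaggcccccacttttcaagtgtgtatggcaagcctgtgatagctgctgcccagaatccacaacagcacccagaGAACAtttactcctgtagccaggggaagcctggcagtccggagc
Gadd45a, chr6:67012643-67012729, minus strand: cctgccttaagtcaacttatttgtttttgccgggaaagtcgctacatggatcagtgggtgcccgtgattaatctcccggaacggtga
The Mdm2 stretch ends with the stop codon and holds 4 RRACH matches, and the Mcl1 stretch holds the letters GGACT. The coding stretch of Gadd45a holds no match. In windows of 100 bases at the middle of the shared bases, read on the transcript strand only, GGACT occurred in 3 of 16 regions of the gene set (18.8%) and in 15.7% of 3449 regions of all coding genes. RRACH, whose matches include those of GGACT, occurred in 14 of the 16 regions (87.5%) and in 90.8% of the 3449. A match is a description of the sequence and not a methylated site.

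Of the 52 genes, 40 had a peak in at least 1 list (76.9% against 53.4% of all protein-coding genes) and 14 had a peak in all 8 lists (26.9% against 19.1%). Genes marked in all 8 lists had a median spliced length of 3650 bases in the gene set, and the 12 genes without a peak had a median of 2560 bases. Over all coding genes the corresponding medians were 4840 and 2004 bases. Genes marked in 1 to 7 lists had a median of 3581 bases in the gene set and 3330 over all coding genes. Marking thus moved with transcript length over all coding genes. In the gene set, genes in 1 to 7 lists were nearly as long as those in all 8. The 52 genes held 570 peaks in 177 regions, of which 89 (50.3%) were in 1 list only and 17 (9.60%) in all 8. Over all coding genes 51.7% of regions were in 1 list and 9.47% in all 8.

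The number of genes of the set with a peak was 23 and 27 in the Sham lists, 25 and 35 at MCAO/R-0 h, 26 and 27 at MCAO/R-6 h, and 28 and 30 at MCAO/R-24 h. The group means were 25 ± 2.83, 30 ± 7.07, 26.5 ± 0.707 and 29 ± 1.41 (SD, n = 2). The Sham range overlapped those of the first 2 occlusion groups, and both MCAO/R-24 h lists were above it by a small number of genes. Over all coding genes the share with a peak was 31.1% and 33.3% in Sham and 32.8% and 35.8% at MCAO/R-24 h, where the ranges overlapped. The list with most marked genes, MCAO/R-0 h replicate 2, was also the longest list, and the list with fewest, Sham replicate 1, was the shortest.

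**Figure D1:**
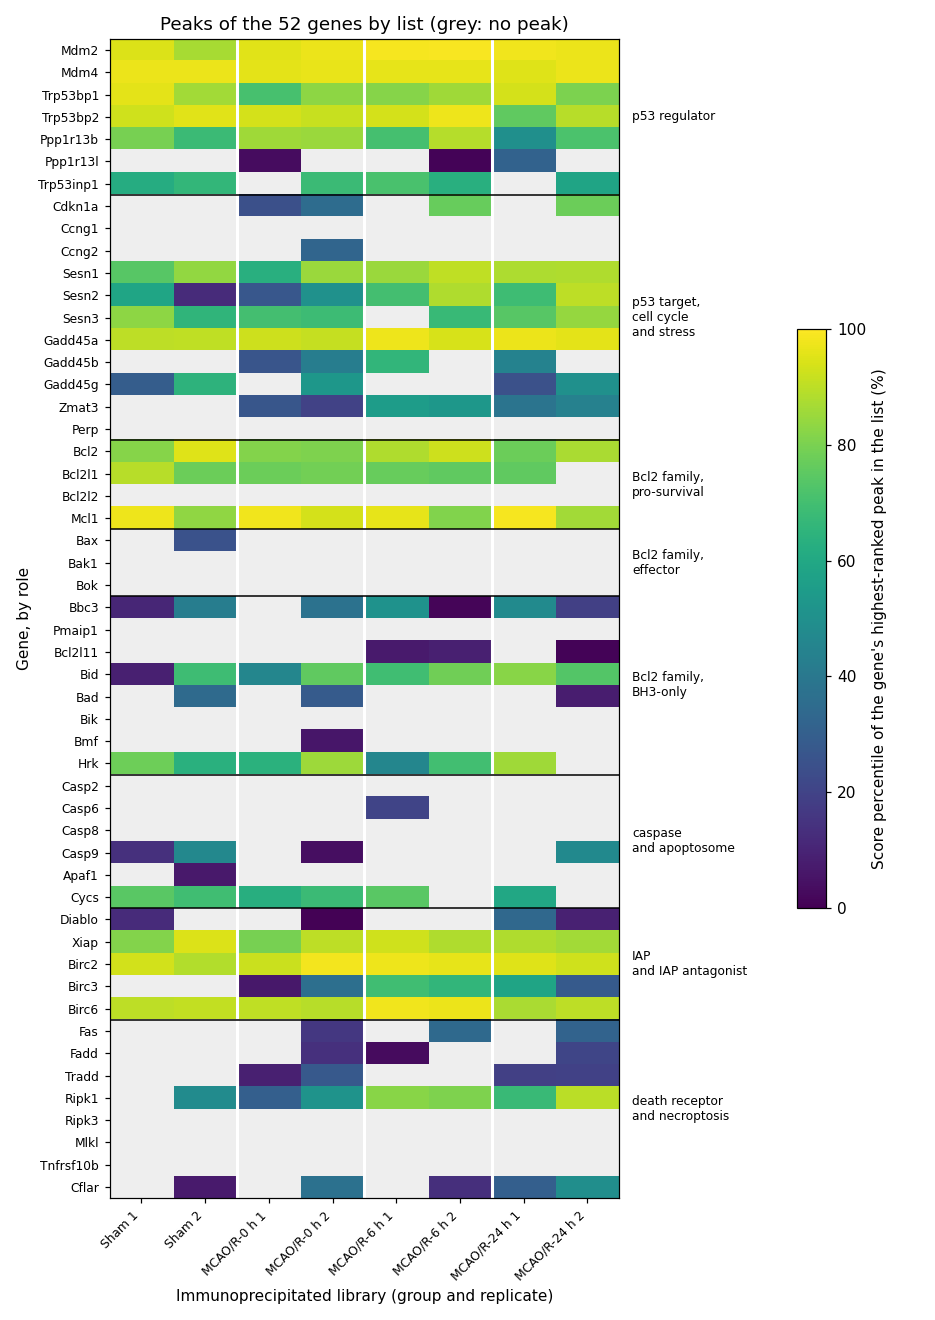
Score percentile (%, colour) of the highest-ranked peak of each of the 52 genes (rows, by role) in each of the 8 lists (columns), with grey where a list held no peak. Mdm2, Mdm4, Birc2 and Birc6 are high in every column, whereas Zmat3 and Birc3 are grey in both Sham columns only.

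The p53 regulators were the most completely marked role, with peaks of 5 of 7 genes in all 8 lists and none without a peak. Mdm4, which binds p53 and blocks its activity, had a single region in coding sequence, centred at -289 nt from the stop codon. Its score percentile was 96.9 and 97.2 in Sham, 96.1 and 96.7 at MCAO/R-0 h, 96.4 and 96.1 at MCAO/R-6 h, and 95.2 and 97.1 at MCAO/R-24 h. The 8 lists lay close together. Both MCAO/R-0 h and both MCAO/R-6 h values were slightly below both Sham values, and the MCAO/R-24 h pair overlapped Sham.

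Mdm2, the ubiquitin ligase that marks p53 for degradation and is itself a p53 target, had 2 regions in all lists. The region over the stop codon had a score percentile of 94.6 and 87.0 in Sham, 95.5 and 97.2 at MCAO/R-0 h, 98.5 and 99.0 at MCAO/R-6 h, and 97.7 and 97.1 at MCAO/R-24 h. All 6 occlusion lists were above both Sham lists, by 6.68 percentile points on average. The upstream coding region, centred at -538 nt from the stop codon, had 79.3 and 81.8 in Sham, 91.5 and 90.9 at MCAO/R-0 h, 94.6 and 83.4 at MCAO/R-6 h, and 82.4 and 84.7 at MCAO/R-24 h. Here too the 6 occlusion lists were above both Sham lists, with a mean difference of 7.37 points.

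Trp53bp2, a p53-binding protein of the ASPP family, had 3 regions in all lists. Its highest-ranked one, in the coding sequence, had 92.9 and 95.6 in Sham, 93.4 and 91.7 at MCAO/R-0 h, 93.4 and 97.3 at MCAO/R-6 h, and 75.8 and 89.1 at MCAO/R-24 h. Both MCAO/R-24 h values were below both Sham values. Trp53bp1, a DNA damage response protein, and Ppp1r13b, a relative of Trp53bp2, were marked in all lists but by shifting regions, so that none of their 19 and 6 regions was in all 8. Ppp1r13l, an inhibitory family member, had peaks in 3 lists and none in Sham, at percentiles up to 31.5. Trp53inp1, a p53-induced stress protein, had peaks in 6 lists.

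Trp53 itself, the gene the study is about, had 1 peak in MCAO/R-0 h replicate 1 and 1 in MCAO/R-24 h replicate 2, and none in the other 6 lists.

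Among 11 targets of p53 that act in the cell cycle and stress, Sesn1, Sesn2 and Gadd45a were in all 8 lists, and Ccng1 and Perp in none. Gadd45a, a DNA damage and stress response protein, had 1 region over the stop codon with percentiles of 89.9 and 90.5 in Sham, 92.3 and 91.3 at MCAO/R-0 h, 97.5 and 93.9 at MCAO/R-6 h, and 97.2 and 96.0 at MCAO/R-24 h. All occlusion lists were above Sham, by 4.43 points on average. Gadd45b had peaks in 4 occlusion lists and in no Sham list, whereas Gadd45g had peaks in both Sham lists and in neither MCAO/R-6 h list.

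Sesn1, a stress-induced inhibitor of growth signalling, had a region across the start codon. The region was centred in the 5′ UTR, whereas most of its peaks were centred in coding sequence. It had 55.6 and 83.8 in Sham, 62.9 and 83.0 at MCAO/R-0 h, 85.1 and 90.5 at MCAO/R-6 h, and 87.5 and 87.9 at MCAO/R-24 h. The lists of Sham were far apart, and both later times were above them. The main region of Sesn2, of the same family, was more scattered, from 12.3 in Sham replicate 2 to 90.2 in MCAO/R-24 h replicate 2. Sesn3 had peaks in 7 lists.

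Cdkn1a, which encodes the cell cycle inhibitor p21, had 1 region in the 3′ UTR (chr17:29318474-29318648, plus strand), 196 nt past the stop codon. No Sham list held it. Its percentile was 24.5 and 35.4 at MCAO/R-0 h, and a single list of each later time held it, at 76.6 (MCAO/R-6 h replicate 2) and 77.5 (MCAO/R-24 h replicate 2). Zmat3, an RNA-binding p53 target, had peaks in all 6 occlusion lists and in neither Sham list, with its highest-ranked peak at 26.7 and 19.9, 55.2 and 52.9, and 38.6 and 43.9 at the 3 times. In each pair 1 of these peaks was in the 3′ UTR, and the other was centred in an exon outside the longest coding transcript. No place was held by both lists of a time, so the paired values are not replicates of 1 site. Ccng2 had a peak in MCAO/R-0 h replicate 2 only, at percentile 32.7.

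Of 4 pro-survival genes of the Bcl2 family, Bcl2 and Mcl1 were in all 8 lists, Bcl2l1 in 7 and Bcl2l2 in none. Mcl1, a short-lived inhibitor of Bax and Bak1, had a region over the stop codon with 97.5 and 83.2 in Sham, 97.8 and 93.6 at MCAO/R-0 h, 96.2 and 80.9 at MCAO/R-6 h, and 98.5 and 86.0 at MCAO/R-24 h, where the pairs overlapped between groups. Bcl2, the founding member, had a 5′ region of 1200 exonic bases with 81.8 and 95.2 in Sham and 77.6 to 88.2 in the occlusion lists. Bcl2l1, which encodes Bcl-xL, had its only region in the 5′ UTR at 75.4 to 89.3.

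Of the 3 effectors, Bak1 and Bok had no peak, and Bax had 1, in Sham replicate 2 at percentile 25.03. Of 8 BH3-only genes, which start the mitochondrial route, Bid was in all 8 lists and Pmaip1 and Bik were in none. The Bid region in the 3′ UTR had 8.93 and 69.0 in Sham and 46.0 to 82.3 in the occlusion lists. Hrk and Bbc3, the latter encoding Puma, had peaks in 7 lists each, and Bad and Bcl2l11 in 3 each. Bmf had 1 peak, in MCAO/R-0 h replicate 2 at percentile 6.18.

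No caspase or apoptosome gene was in all 8 lists. Casp2 and Casp8 had no peak, and Casp9, the initiator of the apoptosome, had peaks in 4 lists at up to 47.6. Casp6 had 1 peak, in MCAO/R-6 h replicate 1 at percentile 20.4, and Apaf1 had 1, in Sham replicate 2 at percentile 6.84. Cycs, which encodes cytochrome c, had peaks in 6 lists. It has many retrotransposed copies in mammalian genomes and reads that map to several places were removed, so its peaks are uncertain.

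The inhibitors of apoptosis had no gene without a peak. Xiap, a direct inhibitor of caspases, Birc2, a ubiquitin ligase of the tumour necrosis factor receptor complex, and Birc6, a very large member of the family, were in all 8 lists. The main region of Birc2, in coding sequence, had 93.2 and 88.6 in Sham, 92.1 and 98.2 at MCAO/R-0 h, 97.5 and 96.4 at MCAO/R-6 h, and 95.03 and 92.6 at MCAO/R-24 h. The Xiap coding region had 81.3 and 94.7 in Sham and 79.7 to 92.6 in the occlusion lists, inside the Sham range but for 1 list. A Birc6 coding region (chr17:74886318-74887092, plus strand) had 90.1 and 91.0 in Sham, 90.3 and 87.2 at MCAO/R-0 h, 98.0 and 97.1 at MCAO/R-6 h, and 87.2 and 88.6 at MCAO/R-24 h.

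Birc3, the close relative of Birc2 and a target of NF-kappaB, had no peak in either Sham list and peaks in all 6 occlusion lists. Its highest-ranked peak was at 6.56 and 36.4 at MCAO/R-0 h, 69.5 and 65.7 at MCAO/R-6 h, and 58.4 and 28.4 at MCAO/R-24 h. All but the last of these values came from the same region, centred in an exon outside the longest coding transcript. The 28.4 was a peak centred in the 5′ UTR, and that list did not hold the region. Diablo, which counters these inhibitors, had low-ranked peaks in 4 lists.

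Zmat3 and Birc3 were the 2 genes of the set with a peak in all 6 occlusion lists and in neither Sham list (3.85%), a pattern of 73 protein-coding genes (0.335%). This pattern was picked after the values were seen. It rests partly on exons outside the coding transcripts, and with exons of basic coding transcripts only neither gene showed it. With lists trimmed to equal length 1 gene showed it, and with the higher-scoring 50% of each list none did.

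Of 8 death receptor and necroptosis genes, none was in all 8 lists, and Ripk3, Mlkl and Tnfrsf10b had no peak. Ripk1, the kinase shared by survival, apoptosis and necroptosis signals, had no peak in Sham replicate 1, 2 in Sham replicate 2, 2 and 3 at MCAO/R-0 h, 5 and 5 at MCAO/R-6 h, and 4 and 3 at MCAO/R-24 h. Its highest-ranked peak was at 48.2 in Sham replicate 2, 30.3 and 51.3 at MCAO/R-0 h, 82.4 and 80.6 at MCAO/R-6 h, and 67.6 and 89.5 at MCAO/R-24 h. All 4 libraries of the later times were above the Sham and MCAO/R-0 h values. These peaks lay at different places, so the order is not that of 1 site. The 82.4, 80.6 and 89.5 were in coding sequence, and the 51.3 and 67.6 in the 3′ UTR. The 48.2 and 30.3 were centred in exons outside the longest coding transcript. Fas, Fadd and Tradd had peaks in occlusion lists only, in 3, 3 and 4 lists, at percentiles of 34.2 or less. Over the whole gene set, 12 genes (23.1%) had a peak in occlusion lists only, against 14.6% of all protein-coding genes. Peaks in Sham lists only were found for 2 genes (3.85%), against 1.71%. The 6 occlusion lists outnumber the 2 Sham lists, which favours the first pattern. Cflar, which blocks Casp8, had peaks in 5 lists.

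**Figure D2:**
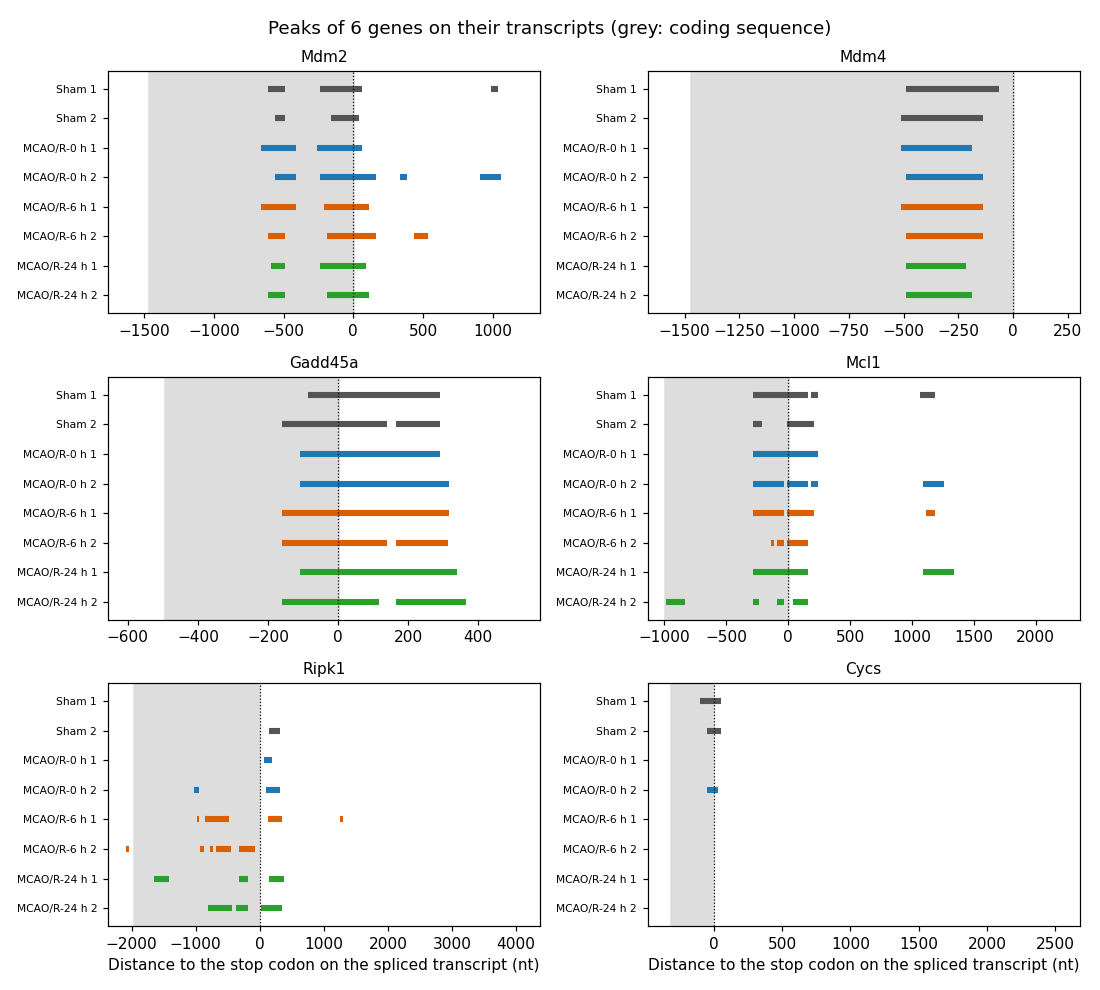
Peaks of 6 genes by list (rows, coloured by group) against the distance to the stop codon on the spliced transcript (nt), with coding sequence in grey. Peaks in exons outside the transcript with the longest coding sequence are not drawn. The Mdm2, Gadd45a and Mcl1 regions cover the stop codon in most lists, and coding peaks of Ripk1 appear in occlusion lists only.

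By place, 46.8% ± 5.09 of the peaks of the gene set were centred in coding sequence, 35.1% ± 2.94 in the 3′ UTR and 8.53% ± 2.39 in the 5′ UTR (SD, n = 8 lists). For all coding genes the shares were 55.0% ± 1.53, 32.5% ± 1.22 and 4.40% ± 0.287. Centres at most 200 nt from the stop codon made up 18.2% ± 2.68 of the peaks of the gene set and 20.6% ± 0.398 of those of all coding genes. By group it was 16.97% ± 3.04 in Sham, 18.9% ± 1.52 at MCAO/R-0 h, 18.4% ± 5.47 at MCAO/R-6 h and 18.5% ± 2.16 at MCAO/R-24 h (SD, n = 2), differences smaller than the spread between lists. Of the 17 regions in all lists, 10 were centred in coding sequence, 4 in the 3′ UTR and 3 in the 5′ UTR, and 5 included the stop codon.

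The score percentiles of the 17 regions in all lists, which lay in 12 genes, were compared among the 4 groups by a one-sided exact permutation test, which regrouped the 8 libraries into pairs in all possible ways. Before adjustment 2 of 17 regions had p under 0.05, against 6.52% of 4512 regions of all coding genes. They were the stop codon regions of Mdm2 (exact permutation p = 0.0190) and Gadd45a (exact permutation p = 0.0476). After Benjamini-Hochberg adjustment over all 4512 regions no region passed, and the smallest adjusted p was 0.710 in this exact permutation test. The smallest p it allows is 0.00952, and any given pair recurs in 14.3% of the divisions, so when only 1 group stands apart the p depends on how the other libraries fall.

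The 6 occlusion lists were compared with the 2 Sham lists by a two-sided exact permutation test over 28 splits, whose smallest p is 0.0357. The Mdm2 stop codon region reached it, 1 of 17 regions, against 6.38% of all 4512. Gadd45a had exact permutation p = 0.0714. The upstream coding region of Mdm2 had exact permutation p = 0.107 here and 0.257 in the exact permutation test among the 4 groups. The smallest adjusted p was 0.560 in this exact permutation test, so no region passed. The median difference, occlusion minus Sham, was 1.51 percentile points in the 17 regions and 1.22 in all 4512. The difference of the Mdm2 stop codon region was 2.89 points without Sham replicate 2 and 10.5 without Sham replicate 1. Its p among the groups was above 0.05 in 7 of the 8 tests that left out 1 library, up to 0.200 in the exact permutation test.

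**Figure D3:**
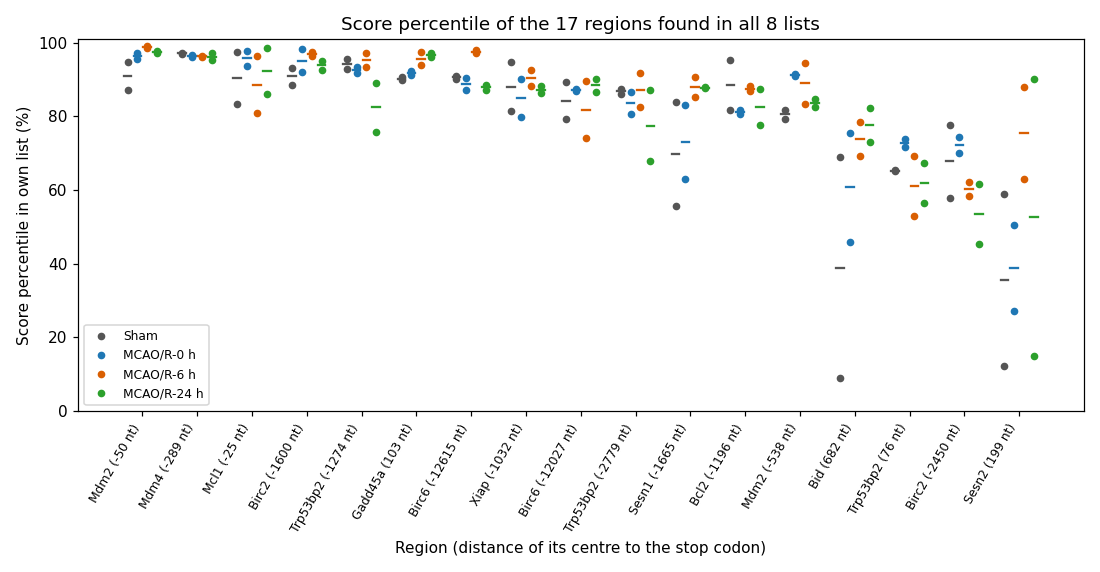
Score percentile (%) of the 17 regions in all 8 lists, ordered by median, with a point per library, a bar at each group mean and colours for groups. The Mdm2 region over the stop codon (-50 nt) and the Gadd45a region (103 nt) have all occlusion points above both Sham points, and Bid and Sesn2 spread most.

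A region was called gained when both lists of a time and neither Sham list held it, and lost in the opposite case. These calls have no test. At MCAO/R-0 h 6 of 115 regions were gained (5.22% against 3.81% of all regions) and 3 were lost (2.61% against 1.91%). At MCAO/R-6 h 4 of 130 were gained (3.08% against 4.90%) and 4 lost (3.08% against 2.02%). At MCAO/R-24 h 5 of 122 were gained (4.10% against 3.69%) and 4 lost (3.28% against 2.83%). The percentages of all regions are over coding genes. The shares of the gene set rest on few regions and were near them, lower for gains at MCAO/R-6 h and slightly higher otherwise. The 3 comparisons share the Sham lists.

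Over the 3 times 12 regions in 8 genes were gained. The Sesn2 region in the 3′ UTR (chr4:132219793-132220142, minus strand), 1061 nt past the stop codon, was absent from Sham and MCAO/R-0 h lists and had 70.02 and 43.9 at MCAO/R-6 h, then 68.8 and 63.4 at MCAO/R-24 h. Of 3 Ripk1 regions, a coding one (chr13:34211809-34212233, plus strand) had 82.4 and 80.6 at MCAO/R-6 h, with 89.5 for replicate 2 of MCAO/R-24 h. The second coding one had 66.2 in MCAO/R-6 h replicate 2, and 52.4 and 62.1 at MCAO/R-24 h. A Ppp1r13b coding region had 71.9 in MCAO/R-0 h replicate 2, then 68.9 and 58.3 at MCAO/R-6 h, and no peak at MCAO/R-24 h. No Sham list held any of these regions.

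The Birc3 region gained at the first 2 times was centred in an exon outside the longest coding transcript. It had 6.56 and 36.4, then 69.5 and 65.7, and 58.4 in replicate 1 of MCAO/R-24 h. A Birc3 coding region gained at MCAO/R-24 h had 1.54 and 19.4. The Tradd 3′ UTR region had 8.66 and 28.1 at MCAO/R-0 h and 19.1 and 6.29 at MCAO/R-24 h. The second Tradd region had 3.56 and 21.8 at MCAO/R-0 h. The Gadd45b region had 26.5 and 42.3 at MCAO/R-0 h, with 66.0 for replicate 1 of MCAO/R-6 h. A Cflar coding region had 30.2 and 49.6 at MCAO/R-24 h, and 1 list of each earlier time held it, at 37.3 and 13.5. The third Ripk1 region, in an exon outside the longest coding transcript, had 30.3 and 13.0 at MCAO/R-0 h and 46.3 for replicate 1 of MCAO/R-6 h. Of the 12 gained regions, 41.7% stayed under percentile 50 in every list.

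Over the 3 times 8 regions in 7 genes were lost. A Ppp1r13b coding region (chr12:111799646-111800070, minus strand) had 79.4 and 68.1 in Sham, 85.8 and 85.1 at MCAO/R-0 h, 49.5 and 88.7 at MCAO/R-6 h, and no peak at MCAO/R-24 h. The stop codon region of Cycs had 74.5 and 57.4 in Sham, 54.5 in MCAO/R-0 h replicate 2 and no peak at the later times. A Xiap coding region next to the one in all lists had 76.5 and 78.2 in Sham and 77.9 in MCAO/R-6 h replicate 2 only.

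A Trp53inp1 region had 61.8 and 66.0 in Sham and no peak at MCAO/R-0 h, and was present again at MCAO/R-6 h (25.2 and 62.9) and for replicate 2 of MCAO/R-24 h (58.5). The lost Gadd45g region had 29.7 and 64.7 in Sham, 52.9 in MCAO/R-0 h replicate 2, no peak at MCAO/R-6 h, and 24.6 and 50.1 at MCAO/R-24 h. A Bbc3 coding region had 10.8 and 33.8 in Sham and 12.8 in MCAO/R-24 h replicate 2 only. Birc6 lost 1 region at MCAO/R-6 h and another at MCAO/R-24 h, whereas its regions in all lists stayed. Of the 8 lost regions, 12.5% stayed under percentile 50 in every list.

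**Figure D4:**
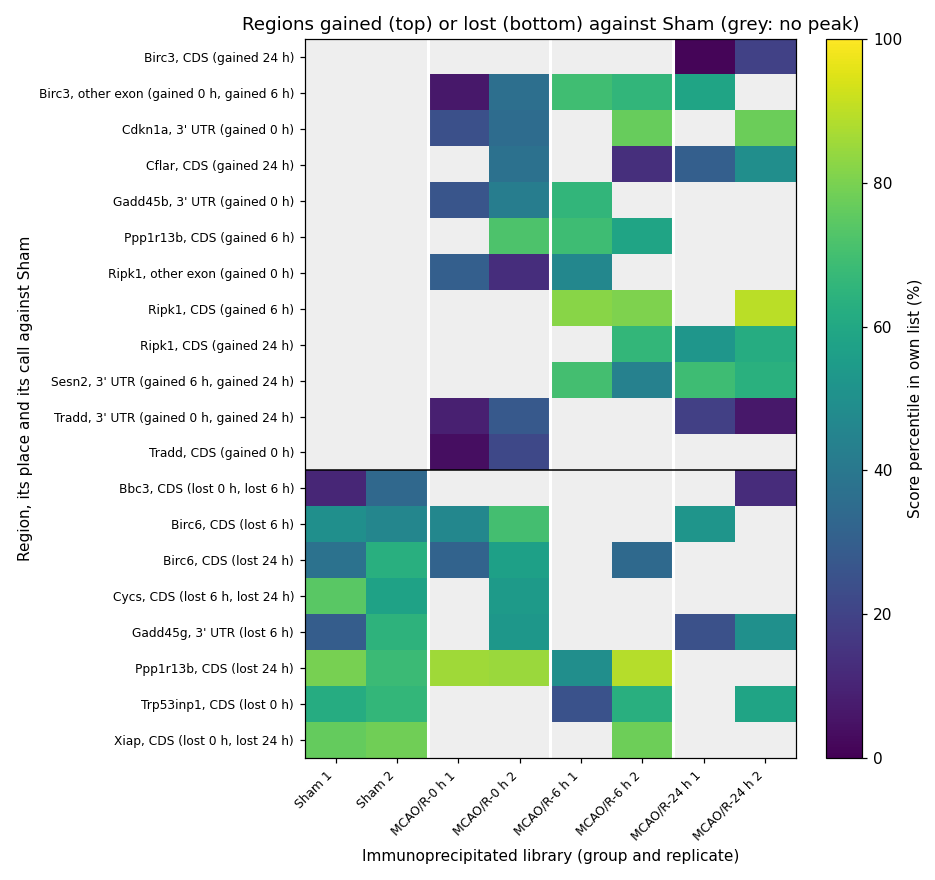
Score percentile (%, colour) of the 12 regions gained (top) and 8 lost (bottom) against Sham at any time, by list (columns), with grey where there was no peak. The Sesn2 region is filled in all 4 lists of the later times, and several other rows are filled in single lists of the remaining groups.

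A peak and its rank depend on RNA abundance and depth as well as on methylation, and RNA abundance was not analysed here, so its part in these patterns was not tested. In bulk tissue, fewer cells of a type and less RNA per cell cannot be told apart. Of the cell type markers, Neurod2, Tbr1 and Cux2 of cortical neurons, Aqp4 of astrocytes, and Cx3cr1 and P2ry12 of microglia had peaks in all 8 lists. The number of microglial markers with a peak ran from 2 to 4 per list, and none of 3 markers of infiltrating myeloid cells (S100a8, Ly6g, Ccr2) had a peak in any list. A marker without a peak may still be expressed.

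Other genes of these pathways were counted from a fixed list of 50. Of 24 other p53 pathway genes, 8 were in all lists, among them Btg2, Ep300 and Crebbp, and 10 in none. Of 15 other apoptosis genes Bag3 and Bcl2l13 were in all lists and Bag1 and Bnip3 in none, and of 11 other death receptor and inflammatory cell death genes Cyld was in all and 5 were in none. In these genes 3 of 102, 5 of 103 and 4 of 93 regions were gained at the 3 times, in order, against 3.81%, 4.90% and 3.69% of all regions. The lost regions numbered 0, 3 and 3, against 1.91%, 2.02% and 2.83%. Of their 13 regions in all lists, 3 had p under 0.05 among groups and 2 between occlusion and Sham before adjustment, against 6.52% and 6.38% of all 4512 regions. No region passed after adjustment.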

How the data were processed

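Peak lists of 8 immunoprecipitated libraries were used, 2 for each of the 4 groups. The authors ran Trim Galore and HISAT2 against GRCm39, kept reads with a single mapped place (SAMtools), and passed these to the peak caller exomePeak2. The deposited score column has no stated scale, so it was used only as a rank within each list. Fragment length is described differently in the labels and the methods. Input libraries and depth were not analysed here.

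Each peak was cut to the exons of its gene in GENCODE M39 (transcripts tagged TAGENE or readthrough left out) and given to the gene with most exonic overlap. This exon model was chosen after checking that rebuilt lengths were multiples of 25 nt, the grid of the caller, which held for 97.1% to 98.3% of intron-crossing peaks in coding genes per list. A gene was marked when any peak span on its strand touched an exon. Place was read on the transcript with the longest coding sequence, and an exon outside it is called other exon. Exact permutation tests ran over libraries, with Benjamini-Hochberg adjustment over all regions in all 8 lists. Python 3 scripts with numpy were tested on simulated data.

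Genes named with values were those with a region in all lists, a gained or lost region, p under 0.05 before adjustment or a peak in 1 list only, and others are given by counts and ranges. Some genes are named with values outside that rule (Zmat3, Casp9, Ripk1 by gene), chosen after their values were seen. The genes, lists and tests were chosen with earlier results of these data known.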

Additional observations from a re-analysis of the deposited data

Results flagged for a closer look

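The Birc6 region of 775 exonic bases in all 8 lists ranked above either Sham list at MCAO/R-6 h in both replicates, and below either Sham list at MCAO/R-24 h in both replicates. Its mean score percentile differed from Sham by 6.996 points at MCAO/R-6 h and by -2.65 points at MCAO/R-24 h. Among the 4 groups the region had exact permutation p = 0.0667 (adjusted p = 0.735), and between occlusion and Sham exact permutation p = 0.964, so it passed neither test. The difference between these 2 times alone was not tested. Groups of 2 libraries are too small for a check of single libraries that stand apart.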

How the results depend on the processing

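Of 177 alternative values, 121 stayed on the same side or within 1.5 times of the reported one and 40 moved further. The other 16 were p-values of Mdm2 or Gadd45a that rose above 0.05 in the exact permutation test among the groups. Only the Mdm2 and Gadd45a percentile differences have a direction, and they stayed positive. With the higher-scoring 50% of each list, 26 genes were marked in at least 1 list, 0 regions were gained at MCAO/R-0 h, 1 was lost at MCAO/R-6 h and 0 genes had a peak in every occlusion list and no Sham list. With lists trimmed to equal length, 3 regions were gained at MCAO/R-24 h, 1 region had p under 0.05 among the groups, 2 between occlusion and Sham, and 1 gene was marked in every occlusion list and no Sham list. That count was 0 with exons of basic coding transcripts only, an alternative added after the data were seen. With a window of 400 nt, 33.7% of centres lay near the stop codon. With the replicate block (24 divisions, smallest p 0.0417) 0 regions of the set had p under 0.05, and Mdm2 and Gadd45a each had exact permutation p = 0.0833. Deviations of same-numbered libraries correlated at 0.0355 to 0.0969, so the numbers were not taken to pair them.

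Leaving out 1 library at a time gave 38 to 40 genes marked in at least 1 list, 14 to 16 in all, and 2 to 3 in every occlusion list and no Sham list. It gave 7 to 31 regions gained and 3 to 21 lost at MCAO/R-0 h, 4 to 30 and 7 to 24 at MCAO/R-6 h, and 7 to 30 and 8 to 23 at MCAO/R-24 h. These counts rise because a group is then a single list. Between 0 and 2 regions had p under 0.05 among the groups, 1 to 2 between occlusion and Sham, and the share near the stop codon was 17.6% to 18.7%. Gained and lost calls therefore depend on having both lists. The Gadd45a p among the groups was 0.00952 to 0.162 and lost its call in 6 of 8 cases in the exact permutation test. Unknown depth limits every absent peak.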
